A study of Mus musculus with 12 samples.

Results

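Genes for 7 secreted signals and 3 of their receptors were followed in the brain of *Tpp1*-deficient mice. The signals were the CSF1 receptor ligands *Csf1* and *Il34*, the inflammatory cytokines *Il1a*, *Il1b* and *Tnf*, and the growth factors *Tgfb1* and *Tgfb2*. The receptors were *Tgfbr1*, *Tgfbr2* and *Tnfrsf1a*. They were picked by gene symbol, and all 10 were found among the 52459 genes listed for every library. RNA of the cerebellum (Cb) and of the forebrain/midbrain (F/M) was sequenced from male mice of 4 months of age. The mutants (T) were *Tpp1*-/- homozygotes, in which the gene for the lysosomal enzyme tripeptidyl peptidase 1 is disrupted by gene targeting, and the controls (N) were wild-type siblings from the same heterozygous crosses. Each of the 4 groups, Cb-N, Cb-T, F/M-N and F/M-T, had 3 libraries. The strain background is not given in the sources used here.

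CSF1 and IL-34 are ligands of the same receptor, CSF1R, on which microglia depend for survival and proliferation. In brain, IL-34 is made mainly by neurons and CSF1 largely by glia. IL-1α, IL-1β and TNF are the cytokines of the early inflammatory response of microglia and macrophages, and TNF signals through TNFR1 (*Tnfrsf1a*) and TNFR2 (*Tnfrsf1b*). TGF-beta ligands are secreted in latent form and, once activated, bring the type II receptor (*Tgfbr2*) and the type I receptor (*Tgfbr1*) together, which keeps microglia in their homeostatic state.

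The 12 libraries held 21428379 to 24458189 counts. CPM stands for counts scaled to the library size in the usual way, with TMM factors, and the floors and intervals given for rare counts cover counting error only. The targeted gene, *Tpp1*, lay at 88.1 to 114 CPM in the 6 N libraries and at 21.7 to 31.4 CPM in the 6 T libraries (log2 fold change -1.91 ± 0.040 in Cb and -1.94 ± 0.049 in F/M, SE). Genes of cerebellar granule and Purkinje cells summed to 8239 to 8395 CPM in Cb-N against 266 to 281 CPM in F/M-N, 30.7-fold higher in the area labelled cerebellum. Markers of neighbouring areas differed with genotype. The 16 genes of hindbrain outside the cerebellum had higher sums in T than in N in both areas, and *Hoxb5*, *Hoxc4* and *Hoxd3* among them were at 0 counts in Cb-N and above 0 in Cb-T. Of these 16, 11 met the count filter in Cb through Cb-T alone, so the count of calls is not given. Of 10 tested forebrain genes, 5 were called up in Cb-T, 2 of them tested through Cb-T alone, beside 8.54% of all genes called up in Cb. Another 3 were lower at FDR below 0.1 without reaching 1.5-fold, and the sum of the list was 0.881-fold that of Cb-N. The sum of 8 olfactory bulb genes was lower in T in both areas.

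In Cb, the signals and their receptors were higher in T mice for nearly the whole set. A gene was called a differentially expressed gene (DEG) when edgeR's quasi-likelihood test gave a Benjamini-Hochberg adjusted p (FDR) below 0.1 and the difference was at least 1.5-fold. *Il1a*, *Csf1*, *Il34*, *Tgfb1*, *Tgfbr1*, *Tgfbr2* and *Tnfrsf1a*, 7 of the 10, rose in Cb, where 8.54% of the 16382 genes tested were called up. *Tgfb2* was tested and stayed below the 1.5-fold limit, and *Il1b* and *Tnf* had too few counts for the test. In F/M, *Il1a* and *Tgfb1* rose, 2 of the 10, where 2.63% of 16665 genes were called up. Every Cb-T library was above every Cb-N library for the 8 tested genes and, by counts, for *Il1b* and *Tnf*, as it was for 29.0% of the genes tested in Cb. In F/M the T libraries were all above the N libraries for 6 of the tested genes and, by counts, for *Il1b* and *Tnf*, beside 12.4% of the genes tested there. *Il1a* passed the count filter in Cb through its Cb-T libraries alone, the only genotype with all 3 libraries at the filter's level, so its presence among the tested genes was not independent of its difference. The same held for 413 of the 1399 genes called up in Cb and 119 of the 438 in F/M. In bulk tissue, more cells of a type and more RNA per cell cannot be told apart. The summed level of 16 microglial marker genes was 3.47-fold higher in Cb-T than in Cb-N and 1.52-fold higher in F/M-T than in F/M-N, and its part in the results that follow was not tested.

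**Figure D1:**
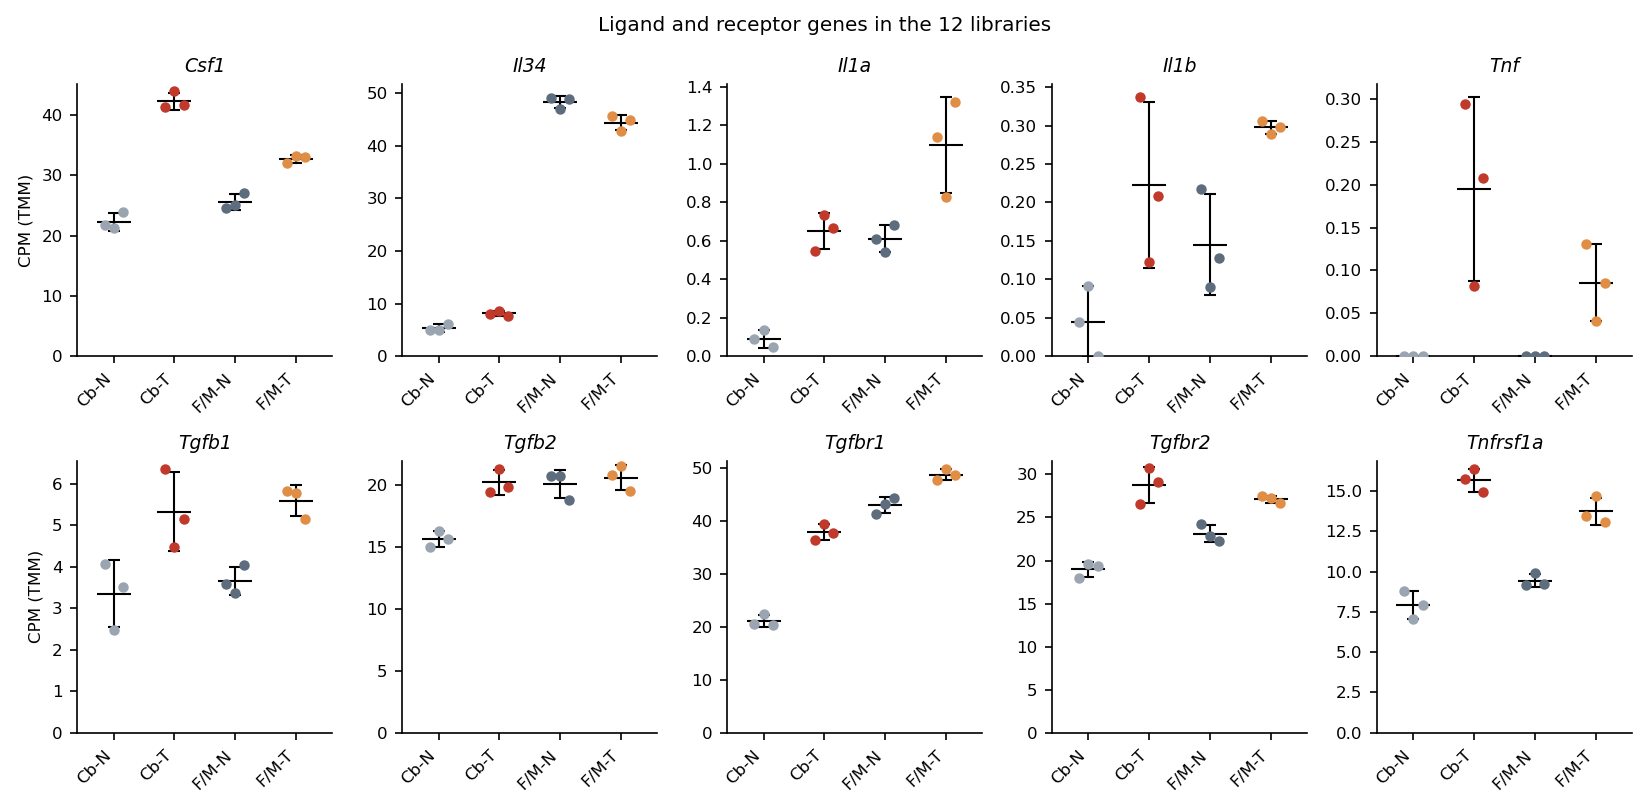
CPM (y axis, linear from 0, TMM-scaled) of the 10 genes in the 3 libraries of each of the 4 groups (x axis). Coloured points are libraries, and black bars give the mean and SD of a group. *Csf1* sat at 41.2 to 43.9 CPM in Cb-T and at 21.2 to 27.1 CPM in both N groups, *Il34* at 4.90 to 8.64 CPM in the Cb libraries and 42.8 to 49.0 CPM in the F/M libraries, and *Tnf* at 0 in all 6 N libraries.

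*Csf1* (chromosome 3, 107741048 to 107760469, minus strand, GRCm38) encodes the CSF1R ligand CSF1. It had 21.7, 21.2 and 23.9 CPM in Cb-N against 41.2, 43.9 and 41.7 CPM in Cb-T. Each Cb-T library was therefore well above each Cb-N library, and the log2 fold change was 0.92 ± 0.052 (SE, n = 3 and 3 libraries, edgeR adjusted p = 3.42e-19). In F/M the libraries had 24.6, 25.03 and 27.1 CPM in N and 32.0, 33.3 and 33.0 CPM in T. The F/M groups did not overlap either, with a log2 difference of 0.40 ± 0.054 (SE, edgeR adjusted p = 2.42e-05) that stayed below the 1.5-fold limit, which is 0.58 on the log2 scale.

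The bases before the start site of *Csf1* are shown because its difference was large for its error and because they hold a match to the consensus of NF-kappaB, the transcription factor that IL-1 and TNF receptors activate. The stretch covers chr3:107760470-107760719 (minus strand, 5′ to 3′, RefSeq, GRCm38.p6), and the match, in capitals, lies at bases -154 to -145 from the start site.
Csf1: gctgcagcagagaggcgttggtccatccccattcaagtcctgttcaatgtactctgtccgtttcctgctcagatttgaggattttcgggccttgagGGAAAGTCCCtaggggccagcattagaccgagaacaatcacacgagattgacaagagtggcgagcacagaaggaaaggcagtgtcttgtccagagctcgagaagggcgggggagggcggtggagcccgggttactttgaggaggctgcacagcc
A match to these letters is a description and no binding was measured.

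*Il34* (chromosome 8, 110741829 to 110805924, minus strand) is the other ligand of CSF1R. It was at 4.90, 4.93 and 6.15 CPM in Cb-N and, in Cb-T, 8.08, 8.64 and 7.73 CPM. The Cb groups did not overlap, and the log2 fold change was 0.62 ± 0.11 (SE, edgeR adjusted p = 5.08e-06). This call sat near the fold limit: without Cb-N replicate 1, Cb-N replicate 2 or Cb-T replicate 2 the log2 fold change was 0.55, 0.56 and 0.58, below the limit. F/M held far more of this transcript, with 49.0, 47.0 and 48.8 CPM in N and 45.6, 42.8 and 44.8 CPM in T. There the T libraries were all below the N libraries, with a log2 fold change of -0.08 ± 0.045 (SE, edgeR adjusted p = 0.212) that did not pass the test. The exons of *Il34* overlap those of the antisense genes *Gm15894* and *Gm15895*. Reads of overlapping antisense genes can be told apart only if strand was used in counting, and the strand setting is not given in the sources used here.

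*Csf1r*, the receptor of both ligands, had 38.8, 36.3 and 40.9 CPM in Cb-N against 88.9, 97.2 and 99.9 CPM in Cb-T. All Cb-T libraries lay above all Cb-N libraries (log2 fold change 1.30 ± 0.043, SE, edgeR adjusted p = 2.23e-27). In F/M it was 109 ± 2.85 CPM in N and 136 ± 3.82 CPM in T (SD, n = 3), a log2 difference of 0.36 below the fold limit. Of 16 genes around CSF1R and the other colony-stimulating factor receptors, 14 were tested, and 9 rose in Cb and 7 in F/M, beside 8.54% and 2.63% of all genes. In Cb 2 of the 9, *Csf2rb* among them, met the count filter through Cb-T alone. The median log2 fold change of the 14 was 1.34 in Cb and 0.56 in F/M, beside 0.012 and 0.0078 over all genes tested. The largest rises in Cb were those of *Tyrobp* (log2 fold change 2.93), an adaptor of microglial receptors, *Csf3r* (2.22), the G-CSF receptor, and *Csf2rb* (2.12), the common beta chain of the GM-CSF, IL-3 and IL-5 receptors. *Tyrobp* (1.38), *Csf3r* (1.11) and *Irf8* (0.90), a transcription factor of myeloid cells, led the list in F/M. No gene of this list was called down by edgeR, DESeq2 or limma-voom in either area, while 4 in Cb and 2 in F/M had a negative difference at an unadjusted edgeR p under 0.05.

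*Il1a* (chromosome 2, 129299610 to 129309972, minus strand) encodes IL-1α, which cells release when damaged and which binds the receptor encoded by *Il1r1*. It was rare throughout, with 2, 3 and 1 counts in the Cb-N libraries and 13, 18 and 16 counts in the Cb-T libraries. Cb-T was thus above Cb-N in every library, and the summed counts, 47 against 6, gave a ratio of 7.17 (95% exact conditional interval 3.06 to 20.5). The fitted log2 fold change was 2.77 ± 0.51 (SE, edgeR adjusted p = 1.35e-05). F/M-N had 14, 12 and 16 counts and F/M-T had 26, 20 and 31 counts, without overlap. Here the ratio was 1.79 (1.21 to 2.67) and the log2 fold change 0.87 ± 0.28 (SE, edgeR adjusted p = 0.034). The call in F/M was weak: without F/M-N replicate 2, F/M-T replicate 1 or F/M-T replicate 3 the edgeR adjusted p was 0.103, 0.102 and 0.163, and DESeq2 gave 0.125. Exons of *Il1a* overlap the antisense gene *Gm14023*.

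Bases before the start site of *Il1a* are shown because it had the largest fitted fold change among the 8 tested of the 10 genes and held matches to 2 motifs, TGANTCA of AP-1 and GAGGAAG of PU.1, the myeloid transcription factor encoded by *Spi1*. The stretch is chr2:129309973-129310222 (minus strand, 5′ to 3′, RefSeq, GRCm38.p6), with the PU.1 match at bases -41 to -35 and the AP-1 match at bases -12 to -6 in capitals, which do not overlap.
Il1a: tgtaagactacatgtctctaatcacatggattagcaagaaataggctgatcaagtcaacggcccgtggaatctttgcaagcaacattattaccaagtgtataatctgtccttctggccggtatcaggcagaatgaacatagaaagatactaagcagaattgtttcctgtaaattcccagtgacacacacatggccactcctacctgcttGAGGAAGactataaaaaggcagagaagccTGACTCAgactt

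*Il1b* (chromosome 2, 129364570 to 129371139, minus strand), for the secreted IL-1β, was below the filter in both areas. Its counts were 1, 2 and 0 in Cb-N, 8, 3 and 5 in Cb-T, 5, 2 and 3 in F/M-N and 7, 7 and 7 in F/M-T. In each area the T libraries were above the N libraries, by as little as 1 count in Cb. The ratio of T to N was 4.88 (1.397 to 26.1) in Cb, from 16 against 3 counts, and 2.05 (0.923 to 4.87) in F/M, from 21 against 10 counts. When all genes were fitted without a filter, *Il1b* was called up in Cb (edgeR adjusted p = 0.055) and not in F/M (adjusted p = 0.352). It overlaps the antisense gene *Il1bos*.

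The antagonist of both ligands, *Il1rn*, was equally rare, with 0, 0 and 3 counts in Cb-N and 7, 4 and 7 in Cb-T. F/M-N had 0, 1 and 0 counts and F/M-T had 4, 9 and 8. The T libraries were above the N libraries in both areas, with a ratio in Cb of 5.49 (1.60 to 29.1) and in F/M of 20.5 (3.29 to 847). *Il1r1*, the signalling receptor, was at 8.97 ± 0.17 CPM in Cb-N and, in Cb-T, 11.1 ± 0.58 CPM (SD, n = 3), a log2 difference of 0.31 (edgeR adjusted p = 0.00278) below the fold limit. In F/M its groups overlapped, and the log2 difference of 0.18 did not pass the test (edgeR adjusted p = 0.249). Of the 26 genes listed for the IL-1 family, 23 were in the files. In Cb 18 were tested and 5 rose, led by *Pycard* (log2 fold change 1.43), the adaptor of inflammasomes, *Il1rl2* (1.402), the IL-36 receptor, and *Nlrp3* (1.31), an inflammasome sensor. In F/M 19 were tested and 4 rose, led by *Nlrp3* (1.08), *Casp4* (0.99), the inflammatory caspase-11, and *Il1rl2* (0.92). Over all genes 8.54% were called up in Cb and 2.63% in F/M. Of the list's calls, *Nlrp3* in Cb and *Casp4* in both areas met the count filter through the T libraries alone. *Casp4* in F/M lost its call when F/M-N replicate 1, 2 or 3 or F/M-T replicate 2 or 3 was left out (edgeR adjusted p = 0.119, 0.135, 0.101, 0.156 and 0.166). The remaining called gene, *Sigirr*, an inhibitory member of the IL-1 receptor family that is named here after its values were seen, lost its call without F/M-N replicate 1 (adjusted p = 0.107) or F/M-T replicate 3 (0.172), and DESeq2 called 2 genes of the list in F/M. The median log2 fold change of the list was 0.28 in Cb and 0.24 in F/M, and a negative difference at an unadjusted edgeR p under 0.05 was seen for 3 of its genes in Cb and for 1 in F/M.

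*Tnf* (chromosome 17, 35199381 to 35202007, minus strand) was listed at 0 counts in all 6 N libraries. Cb-T had 7, 2 and 5 counts and F/M-T had 3, 1 and 2 counts. Each T library thus had at least 1 count, and 3 of the 6 had fewer than 3. With the 0 counts of Cb-N set to a floor of 3 counts over the group, the level of Cb-T was 4.27 times the floor. The exact conditional 95% lower limit of the ratio, which also allows for the counting error of Cb-T, was 3.04. In F/M, from 6 counts, the level of F/M-T was 1.95 times the floor and the lower limit was 1.15. Without a filter *Tnf* was called up in Cb (edgeR adjusted p = 0.00241) and not in F/M (adjusted p = 0.144). Cb-T and F/M-T did not differ beyond counting error, with a ratio of 2.27 (0.821 to 7.22).

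*Tnfrsf1a* (chromosome 6, 125349362 to 125362484, plus strand), the TNF receptor found on most cell types, had a level per kilobase far above that of its ligand. It had 8.78, 7.07 and 7.95 CPM in Cb-N against 15.7, 16.4 and 14.9 CPM in Cb-T. The Cb groups were wide apart, with a log2 fold change of 0.98 ± 0.085 (SE, edgeR adjusted p = 2.78e-13). In F/M the values were 9.15, 9.93 and 9.26 CPM in N and 13.5, 14.7 and 13.1 CPM in T. These groups did not overlap, and the log2 difference of 0.583 ± 0.079 (SE, edgeR adjusted p = 2.13e-05) lay just under the limit of 0.585. It was called up in F/M when F/M-N replicate 2, F/M-T replicate 1 or F/M-T replicate 3 was left out (0.62, 0.60 and 0.62).

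*Tnfrsf1b*, the TNF receptor of immune cells and microglia, had 2.07, 2.15 and 2.91 CPM in Cb-N and, in Cb-T, 6.44, 6.48 and 5.11 CPM. It rose in Cb (log2 fold change 1.34 ± 0.15, SE, edgeR adjusted p = 1.64e-10). In F/M it was 5.54 ± 0.34 CPM in N and 5.88 ± 0.17 CPM in T (SD, n = 3), and its log2 difference of 0.13 did not pass the test (edgeR adjusted p = 0.436). Of 30 genes of TNF signalling 28 were tested, of which 5 rose in Cb and 1 in F/M (0 there by DESeq2). The 17.9% that rose in Cb stands beside 8.54% of all genes, and the 3.57% that rose in F/M is near the 2.63% of all genes. *Bcl3* led in both areas (log2 fold change 2.03 in Cb and 1.47 in F/M), and *Relb* rose in Cb (0.86). Both belong to the NF-kappaB machinery, and *Bcl3* met the count filter in both areas through the T libraries alone. *Rhbdf2* and *Casp8*, named here after their values were seen, were also called up in Cb. *Rhbdf2* lost this call without Cb-N replicate 3 (log2 fold change 0.56) and *Casp8* without Cb-N replicate 1 (0.48). The median log2 fold change of the list was 0.11 in Cb and 0.063 in F/M. With edgeR, DESeq2 and limma-voom no gene of the list was called down, while 4 in Cb and 2 in F/M had a negative difference at an unadjusted edgeR p under 0.05.

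*Tgfb1* (chromosome 7, 25687002 to 25705077, plus strand), the TGF-beta ligand of microglia and other immune cells, had 4.06, 2.46 and 3.51 CPM in Cb-N against 6.35, 4.48 and 5.16 CPM in Cb-T. The lowest Cb-T library was only just above the highest Cb-N library. Its log2 fold change was 0.67 ± 0.15 (SE, edgeR adjusted p = 0.000211). Leaving out Cb-N replicate 2 or Cb-T replicate 1 brought this to 0.48 and 0.52, below the fold limit. In F/M it had 3.57, 3.37 and 4.04 CPM in N and 5.82, 5.78 and 5.16 CPM in T. The groups were clearly separate there, and the log2 fold change of 0.65 ± 0.12 (SE, edgeR adjusted p = 0.000757) was close to that in Cb.

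The bases before the start site of *Tgfb1* are shown as the other stretch with a match to the NF-kappaB consensus. They cover chr7:25686752-25687001 (plus strand, 5′ to 3′, RefSeq, GRCm38.p6), with the match at bases -140 to -131 in capitals.
Tgfb1: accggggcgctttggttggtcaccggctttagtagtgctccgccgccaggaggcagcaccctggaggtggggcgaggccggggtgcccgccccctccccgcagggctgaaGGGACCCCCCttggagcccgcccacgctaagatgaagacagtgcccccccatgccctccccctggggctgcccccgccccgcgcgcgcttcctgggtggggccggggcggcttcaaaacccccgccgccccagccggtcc
Windows from 250 bases before to 50 bases after the start were searched on both strands for 9 of the 10 genes, 10 windows in all since *Tgfbr1* has more than 1 start. The NF-kappaB consensus was matched in 2 of these windows, those of *Csf1* and *Tgfb1*, and in 8.46% of the 32851 windows of the same length. TGANTCA of AP-1 was found in *Il1a* alone (7.81% of windows). GAGGAAG of PU.1 was found in windows of *Il1a*, *Tgfbr1*, *Tgfbr2* and *Tnf* (13.6% of windows), and the E-box CACGTG in that of *Tgfb2* (7.15%).

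*Tgfb2* (chromosome 1, 186622792 to 186705989, minus strand), another ligand of the same receptors, had 14.99, 16.3 and 15.7 CPM in Cb-N and, in Cb-T, 19.5, 21.3 and 19.8 CPM. The Cb groups did not overlap, but the log2 difference of 0.37 ± 0.066 (SE, edgeR adjusted p = 7.12e-06) was below the 1.5-fold limit. F/M had 20.8, 20.8 and 18.8 CPM in N and 20.8, 21.5 and 19.5 CPM in T. These groups overlapped, and the log2 difference of 0.075 ± 0.063 (SE, edgeR adjusted p = 0.442) did not pass the test. Its exons overlap the antisense gene *Gm29491*.

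*Tgfbr1* (chromosome 4, 47353222 to 47414931, plus strand), the type I receptor that phosphorylates Smad2 and Smad3, had 20.6, 22.4 and 20.3 CPM in Cb-N against 36.4, 39.4 and 37.7 CPM in Cb-T. All Cb-T libraries were well above all Cb-N libraries, with a log2 fold change of 0.84 ± 0.053 (SE, edgeR adjusted p = 1.69e-17). F/M had 41.4, 43.3 and 44.3 CPM in N and 47.7, 49.8 and 48.6 CPM in T. The groups were again apart, by a log2 difference of 0.22 ± 0.045 (SE, edgeR adjusted p = 0.00134) below the fold limit.

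*Tgfbr2* (chromosome 9, 116084293 to 116175360, minus strand), the type II receptor that binds the ligand, had 17.9, 19.6 and 19.3 CPM in Cb-N and, in Cb-T, 26.6, 30.8 and 29.1 CPM. The Cb groups did not overlap (log2 fold change 0.61 ± 0.060, SE, edgeR adjusted p = 1.45e-11), and without Cb-N replicate 1 or Cb-T replicate 2 the log2 fold change was 0.56 each time, below the limit. F/M had 24.2, 22.9 and 22.3 CPM in N and 27.5, 27.2 and 26.6 CPM in T. The log2 difference there was 0.27 ± 0.055 (SE, edgeR adjusted p = 0.00151), below the limit, without overlap.

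The third ligand, *Tgfb3*, had the opposite sign. It was at 23.0 ± 0.39 CPM in Cb-N against 18.4 ± 0.88 CPM in Cb-T, and at 15.6 ± 0.18 CPM in F/M-N and, in F/M-T, 10.8 ± 0.75 CPM (SD, n = 3). Its log2 differences of -0.32 in Cb (edgeR adjusted p = 2.55e-05) and -0.49 in F/M (edgeR adjusted p = 8.04e-05) stayed within the fold limit, and the T libraries were all below the N libraries in both areas. *Tgfbr3*, the co-receptor betaglycan, had log2 differences of 0.16 in Cb and -0.01 in F/M. Of the 31 further genes listed for TGF-beta signalling, which include *Tgfb3* and *Tgfbr3*, all were tested in Cb and 30 in F/M. In Cb, 3 rose and 2 fell, of 31, beside 8.54% of all genes called up and 2.66% called down, while 8 had a positive and 12 a negative difference at an unadjusted edgeR p under 0.05. A gene among the 3 met the count filter through Cb-T alone. Among those that rose were *Tgif1* (log2 fold change 0.67), a repressor of Smad-driven transcription, and *Nrros* (0.64), which holds latent TGF-beta 1 on microglia. *Itgb6* (-0.88), a subunit of an integrin that activates latent TGF-beta, and *Ltbp2* (-0.65), a matrix protein related to the latent TGF-beta binding proteins, were down. *Tgif1* was not called without Cb-N replicate 3 (0.56) or Cb-T replicate 3 (0.58), nor *Nrros* without Cb-N replicate 3 (0.58). In F/M *Tgif1* was the only gene of the list to rise (0.70), 1 of 30 beside 2.63% of all genes, and none was called down by edgeR, DESeq2 or limma-voom, while 9 had a negative difference at an unadjusted edgeR p under 0.05. The median log2 fold change was -0.07 in Cb and -0.05 in F/M, close to that of all genes.

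**Figure D2:**
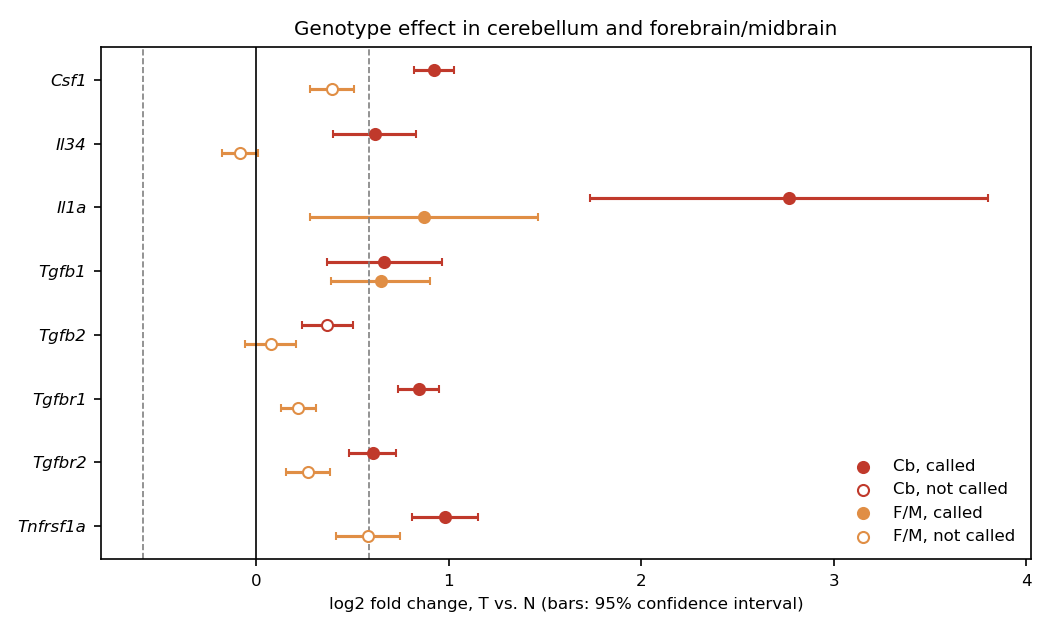
log2 fold change of T vs. N (x axis) with 95% confidence intervals for the 8 tested genes (y axis) in Cb (red) and F/M (orange). Filled points were called DEG, open points were not, and dashed lines mark the 1.5-fold limit. In Cb 7 of the points are filled, from 0.61 for *Tgfbr2* to 2.77 for *Il1a*, and in F/M only those of *Il1a* (0.87) and *Tgfb1* (0.65).

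Most other cytokine genes were too rare to test. Of 34 further interleukins, interferons and related cytokines, 10 passed the count filter in Cb and 9 in F/M. In each area 1 rose, in Cb 1 of 10 beside 8.54% of all genes and in F/M 1 of 9 beside 2.63%. *Lif*, a cytokine of the IL-6 family, was at 0.212 ± 0.073 CPM in Cb-N against 0.497 ± 0.0081 CPM in Cb-T (SD, n = 3; edgeR adjusted p = 0.021), and lost its call without Cb-N replicate 1 (adjusted p = 0.117). *Ebi3*, a subunit of IL-27 and IL-35, was at 0.608 ± 0.18 CPM in F/M-N and, in F/M-T, 1.13 ± 0.074 CPM (SD, n = 3; edgeR adjusted p = 0.023), and lost its call without F/M-N replicate 2 (adjusted p = 0.115). Both genes met the count filter through the T libraries alone.

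**Figure D3:**
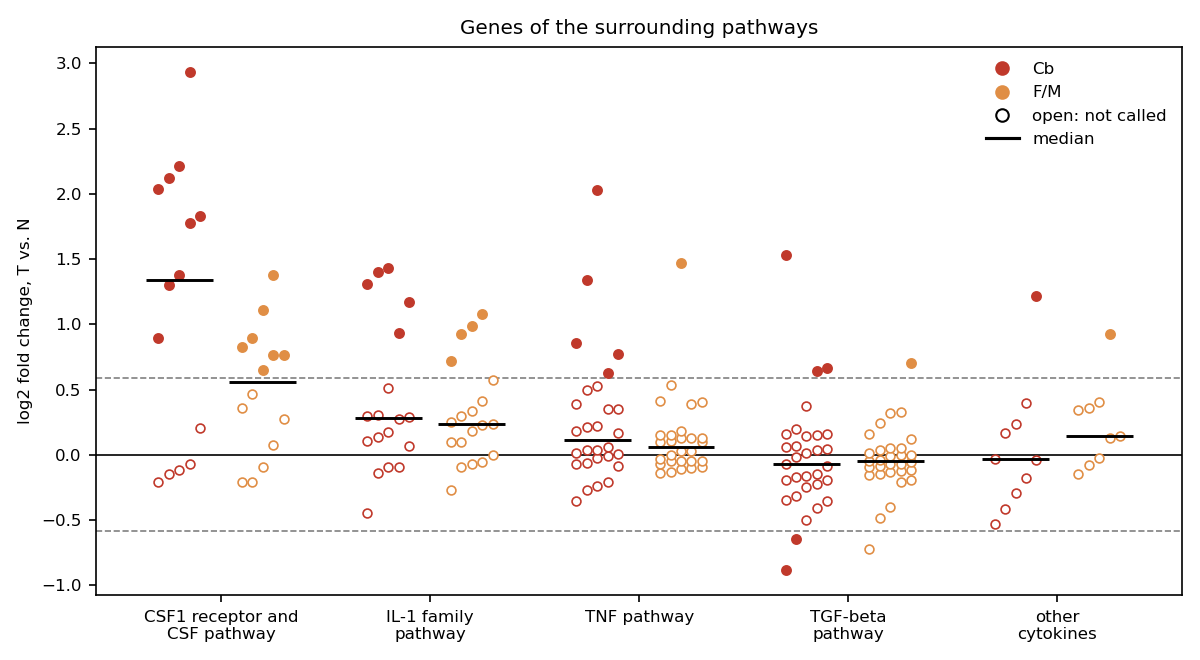
log2 fold change of T vs. N (y axis) for the tested genes of the 5 lists of surrounding genes (x axis), in Cb (red) and F/M (orange). Filled points were called DEG, short black lines are medians and dashed lines mark the 1.5-fold limit. The CSF1 receptor list is shifted up (median 1.34 in Cb and 0.56 in F/M), whereas the medians of the TGF-beta list are near 0 (-0.07 and -0.05).

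Whether the genotype effect differed between the areas was tested with an interaction of tissue and genotype in 1 fit of the 12 libraries. The effect was larger in Cb for *Il1a* (difference of log2 fold changes 1.92 ± 0.60, SE, edgeR adjusted p = 0.020), *Il34* (0.72 ± 0.11, adjusted p = 6.27e-06) and *Tgfbr1* (0.64 ± 0.068, adjusted p = 1.86e-08). That is 3 of the 10, and 6.41% of the 17482 genes tested had a difference called in this direction. *Csf1* (0.55), *Tnfrsf1a* (0.42), *Tgfbr2* (0.36) and *Tgfb2* (0.31) also had positive differences with an edgeR adjusted p of 1.68e-06, 0.00932, 0.00171 and 0.0104, all below the fold limit. *Csf1* passed it without Cb-N replicate 3 (0.60). For *Tgfb1* the difference was 0.040 (95% confidence interval -0.39 to 0.47, edgeR adjusted p = 0.926), so that a difference in either direction remained within the interval. All these differences are on the log2 scale. In CPM the mean of *Il1a* rose by 0.558 in Cb and by 0.485 in F/M, from 6 counts over the Cb-N libraries. The mean of *Il34* changed by 2.82 CPM in Cb and -3.88 CPM in F/M, and that of *Tgfbr1* by 16.8 and 5.74 CPM.

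Between the areas of control mice, 3 of the 10 genes were called. In Cb-N, *Il34* was lower than in F/M-N by a log2 ratio of -3.17 ± 0.069 (SE, edgeR adjusted p = 7.38e-27), *Il1a* by -2.67 ± 0.50 (adjusted p = 1.91e-05) and *Tgfbr1* by -1.02 ± 0.051 (adjusted p = 1.92e-17). Among all genes 23.2% were called lower in Cb-N. These ratios share the Cb-N and F/M-N libraries with the genotype effects above and are set beside them only as values. In the T mice, *Il34* (-2.45 ± 0.063) and *Il1a* (-0.76 ± 0.28) were called lower in Cb, 2 of the 10, beside 18.9% of all genes, and *Tgfbr1* (-0.37 ± 0.045) was within the fold limit. The 5 other tested genes lay within 1.5-fold between the areas in either genotype. *Csf1* was lower in Cb-N than in F/M-N (log2 ratio -0.19) and higher in Cb-T than in F/M-T (0.36).

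Per kilobase of exon, which allows genes to be compared with each other, the order differed between the areas. In Cb-N *Csf1* was highest with 4.22 ± 0.28 CPM per kb (SD, n = 3). *Tgfbr1* (3.23 ± 0.17), *Tnfrsf1a* (3.06 ± 0.33), *Il34* (2.72 ± 0.36) and *Tgfb2* (2.70 ± 0.11) followed, each overlapping its neighbour in these libraries. *Tgfbr2* (2.32 ± 0.11) and *Tgfb1* (0.663 ± 0.16) came next without overlap, and *Il1a*, *Il1b* and *Tnf* were at or below 0.046 CPM per kb. In Cb-T *Csf1* reached 8.0 ± 0.27 CPM per kb and *Tnfrsf1a* (6.05 ± 0.28) stood next to *Tgfbr1* (5.79 ± 0.23), with overlap. In F/M *Il34* came first by far, with 24.6 ± 0.56 CPM per kb in N and 22.7 ± 0.75 in T, ahead of *Tgfbr1* (6.58 ± 0.22 and 7.46 ± 0.16) and *Csf1* (4.84 ± 0.26 and 6.20 ± 0.13). Of the CSF1R ligands, *Csf1* was thus above *Il34* per kilobase in Cb, and *Il34* above *Csf1* in F/M.

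Likeness of pattern was measured as the root mean square (RMS) difference of centred log2 CPM over the 12 libraries, among 14945 genes with a mean of at least 1 CPM. The genes nearest to *Il1a* were *Csf3r* (RMS difference 0.27), *Rasal3* (0.27) and *Laptm5* (0.29). *Il34* was nearest to *Gabra3* (0.065), which encodes a GABA receptor subunit, *Pde1b* (0.078) and *Fam163b* (0.080). The nearest to *Csf1* were *Apoe* (0.085), the lipid carrier, *Prdx6* (0.086) and *Aebp1* (0.098). *Apoe* (0.11) was also nearest to *Tnfrsf1a*, ahead of *Tmem125* (0.11) and *Grn* (0.12). For the receptors of TGF-beta these were *Il33* (0.063), *Rnase4* (0.079) and *Serpine2* (0.083) for *Tgfbr1*, and *Cd82* (0.048), *Il10ra* (0.063) and *Man2b2* (0.071) for *Tgfbr2*. Nearest to *Tgfb1* were *Gm31166* (0.17), *Gusb* (0.19) and *Fcgr1* (0.20). These values rest on the same 12 libraries, and the spans of the genes' own log2 levels differed, from 0.77 for *Tgfbr2* to 3.41 for *Il1a*.

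Summed levels of the marker genes of several cell types differed between the groups. The 16 microglial genes summed to 217 to 230 CPM in Cb-N against 763 to 780 CPM in Cb-T, and to 617 to 637 CPM in F/M-N and, in F/M-T, 947 to 966 CPM, with none at 0 in any group. That is 3.47-fold in Cb and 1.52-fold in F/M, and 13 and 7 of the 16 rose, beside 8.54% and 2.63% of all genes. The single genes differed, with a median log2 fold change of 1.46 in Cb (0.31 to 3.27) and 0.42 in F/M (-0.06 to 1.30). *Csf1r* is one of the 16. Astrocyte genes summed to 7794 to 7829 CPM in Cb-N against 9812 to 9946 CPM in Cb-T, with 2 of 12 called up, and in F/M to 6574 to 6823 CPM in N and 7397 to 7802 CPM in T, with 1 called up, shares to be read against the same percentages. Oligodendrocyte genes summed to 4747 to 4861 CPM in Cb-N and, in Cb-T, 6277 to 6304 CPM, while in F/M the ranges overlapped (6106 to 6311 CPM in N and 6059 to 6232 CPM in T). Border macrophage and monocyte genes summed to 9.61 to 11.1 CPM in Cb-N against 15.05 to 16.05 CPM in Cb-T, and to 14.4 to 17.0 CPM in F/M-N and, in F/M-T, 17.0 to 18.3 CPM. Lymphocyte genes summed to 0.750 to 0.959 CPM in Cb-N against 1.37 to 2.27 CPM in Cb-T, where none passed the count filter, and to 8.49 to 9.66 CPM in F/M-N and, in F/M-T, 9.55 to 10.5 CPM, mostly from *Cd4*. Endothelial and mural genes summed to 445 to 462 CPM in Cb-N against 508 to 514 CPM in Cb-T, and to 401 to 409 CPM in F/M-N and, in F/M-T, 415 to 430 CPM.

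Sums of markers of place and of neurons differed as well. Genes of hindbrain outside the cerebellum summed to 49.2 to 52.8 CPM in Cb-N against 71.4 to 74.0 CPM in Cb-T, and to 16.5 to 19.6 CPM in F/M-N and, in F/M-T, 34.5 to 36.9 CPM. Cerebellar granule and Purkinje cell genes were lower in Cb-T, at 7190 to 7235 CPM. The forebrain list summed to 656 to 671 CPM in Cb-N against 573 to 594 CPM in Cb-T, a sum that includes *Slc17a7*, which granule cells of the cerebellum also express. In F/M it went from 1972 to 2046 CPM in N to 1864 to 1887 CPM in T. Pan-neuronal genes summed to 7445 to 7523 CPM in Cb-N and, in Cb-T, 6997 to 7071 CPM, and to 10273 to 10322 and 9588 to 9668 CPM in F/M-N and F/M-T. The olfactory bulb list went from 144 to 147 CPM in Cb-N to 92.2 to 96.3 CPM in Cb-T and from 72.6 to 75.3 CPM to 59.4 to 61.4 CPM in F/M. The F/M-N level of *Il34* was 9.07 times and that of *Il1a* 6.74 times the Cb-N level. Of the 1399 genes called up in Cb, 35.3% had an F/M-N level at least 4 times the Cb-N level. How far any of these lists accounts for the values of *Csf1*, *Il34*, *Il1a*, *Tgfb1*, *Tgfbr1*, *Tgfbr2* or *Tnfrsf1a* was not tested.

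**Figure D4:**
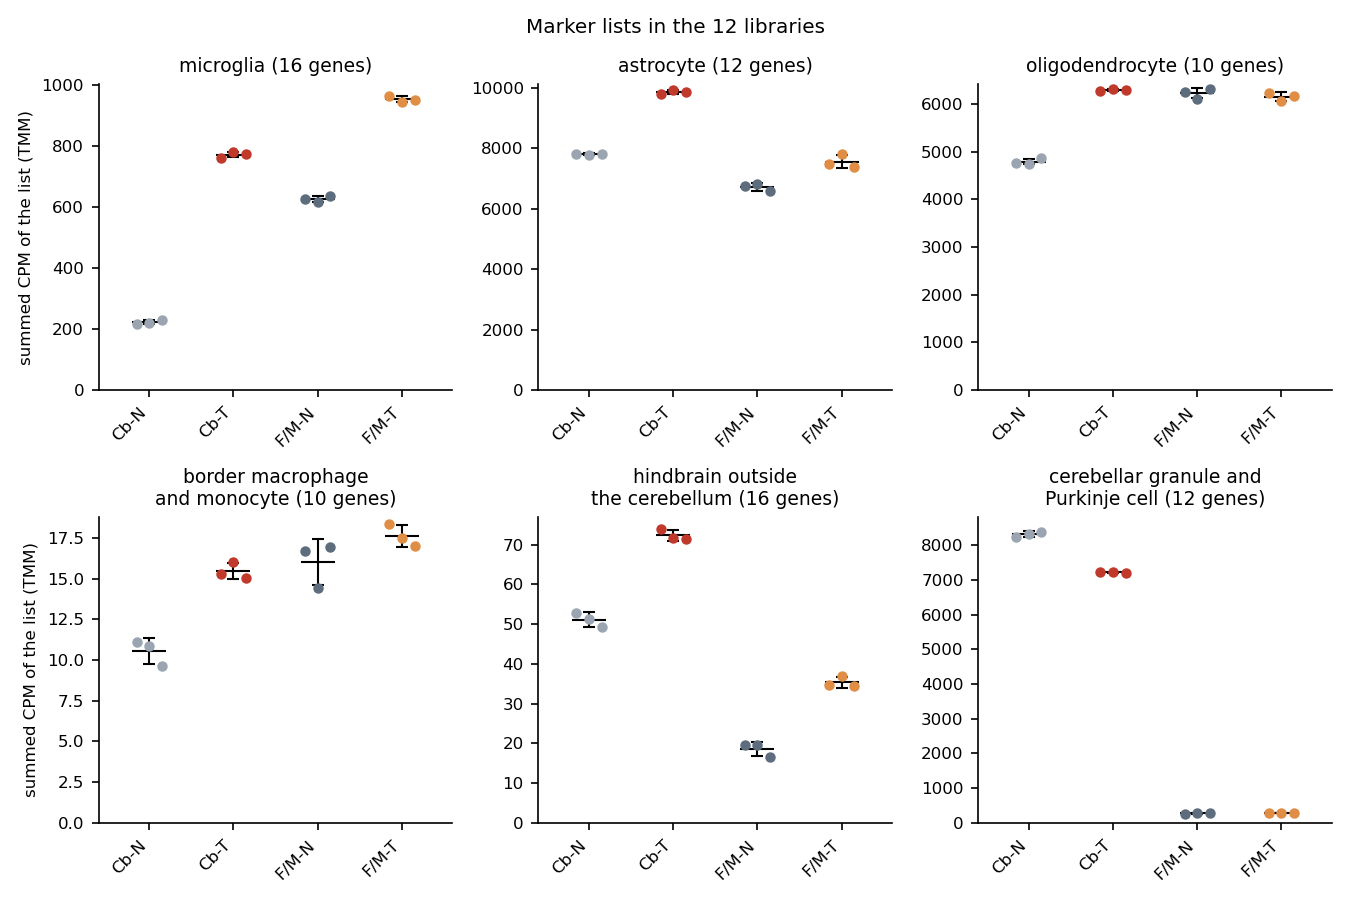
Summed CPM (y axes, linear from 0) of 6 marker lists in the 3 libraries of each group (x axis). Points are libraries, and black bars give mean and SD. Microglial genes went from 217 to 230 CPM in Cb-N to 763 to 780 CPM in Cb-T, and hindbrain genes from 49.2 to 52.8 CPM to 71.4 to 74.0 CPM.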

How the data were processed

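RNA was sequenced as single-end reads from stranded mRNA libraries (TruSeq), 3 per group. The deposited files hold raw read counts per gene, which the authors made with STAR 2.5.1b and featureCounts 1.26.1 on GRCm38/mm10, the STAR release being that of the submitters' processing notes, from which the study's methods differ. Groups were taken from the sample titles. Letters in the file names do not follow the titles' N and T, and *Tpp1* was low in the libraries titled T. The annotation release, the strand setting and the treatment of multimapping reads are not given in the sources used here. The 10 genes, the pathway and marker lists and the tests were chosen with earlier results of these data known.

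Genes were filtered with filterByExpr (minimum count 10, minimum total 15), scaled by TMM and tested with the quasi-likelihood test of edgeR 4.0.16 (R 4.3.3), T vs. N within each area and, for the interaction and the areas, over all 12 libraries. FDR below 0.1 and a difference of at least 1.5-fold made a call. DESeq2 1.42.0, limma-voom (limma 3.58.1), RLE scaling, other filters and limits, a replicate block and leaving out each library were alternatives. Scripts were checked on simulated counts. Levels are CPM (TMM over 12 libraries), likeness used log2 CPM with a prior count of 2, and ratios of rare counts have exact conditional 95% intervals, with a floor of 3 counts over the group for a group at 0. Positions and exon lengths are from GENCODE on GRCm38. Named were the 10 genes, *Tpp1*, direct partners and, per list and area, the 3 called genes with the largest rise and fall. A gene of the TGF-beta list that this rule names is not reported here. Replicates differed by more than sampling noise (chi-square per degree of freedom 1.27 to 3.37). The study's methods describe RNA of the Cb and F/M of 3 mutant and wild-type mice, so Cb and F/M libraries may come from the same mice. The labels do not say which libraries share a mouse, and all were fitted as independent. The p-values measure the spread between these libraries.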

Additional observations from a re-analysis of the deposited data

Results flagged for a closer look

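The genotype effect differed between the areas, by edgeR's interaction test over 12 libraries, for 3 of the genes. The log2 fold change in Cb exceeded that in F/M by 1.92 for *Il1a* (95% confidence interval 0.69 to 3.14, adjusted p = 0.020), by 0.72 for *Il34* (0.50 to 0.94, adjusted p = 6.27e-06) and by 0.64 for *Tgfbr1* (0.50 to 0.78, adjusted p = 1.86e-08). In all 3 cases every Cb-T library was above every Cb-N library. On the CPM scale the mean rise of *Il1a* was 0.558 in Cb and 0.485 in F/M, and its Cb-N level rested on 6 counts. In F/M the T libraries were above the N libraries for *Il1a* and *Tgfbr1* and below them for *Il34*. Groups of 3 libraries are too small to test for a library that stands apart.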

How the results depend on the processing

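No called value changed direction. The values of *Tgfb1* between the areas, none of them called, did change sign: the difference of its log2 fold changes, 0.040, was -0.0052 with a mean count of at least 50 and -0.16 to 0.21 when each library was left out, its log2 ratio of Cb-N to F/M-N, -0.12, ranged from -0.28 to 0.060, and that of Cb-T to F/M-T, -0.08, from -0.25 to 0.039. Outside the fits that left out a library, 314 of 331 values of the 8 tested genes kept their side of the threshold. All 16 that newly passed it did so because the fold limit was dropped. Just 1 no longer passed, that of *Il1a* in F/M with DESeq2 (the cause was not tested). *Il1b* and *Tnf*, which had too few counts for the main test, are not among these values. Without the fold limit, by construction, the genes called were 6 instead of 2 in F/M, 7 instead of 3 in the interaction, 7 instead of 3 between the areas of N mice and 5 instead of 2 between those of T mice, and the pathway genes called were 72 instead of 25 in Cb and 40 instead of 14 in F/M. With a mean count of at least 50, which removes rare genes such as *Il1a*, 1 gene was called in F/M, 1 between the areas of T mice, and 13 and 4 pathway genes in Cb and F/M. DESeq2 called 1 gene in F/M. Without a filter 9 of the 10 were called in Cb. Leaving out each library in turn gave 5 to 7 genes in Cb, 2 in F/M throughout, 3 to 4 in the interaction, 3 and 2 between the areas of N and T mice, and 23 to 28 and 12 to 15 pathway genes in Cb and F/M. The F/M count of 2 did not always hold the same pair, since *Il1a* was lost and *Tnfrsf1a* gained without F/M-N replicate 2, F/M-T replicate 1 or F/M-T replicate 3.

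Deviations of libraries with the same replicate number correlated by -0.0486 to 0.129. For Cb with F/M libraries of the same genotype and number, the correlations were 0.0064 to 0.108. Libraries of different number were not compared, so these values do not decide whether the numbers pair the samples. With a replicate block the counts stayed at 7 genes in Cb, 2 in F/M, 3 in the interaction, 3 and 2 between the areas of N and T mice, and 25 and 14 pathway genes. Depth limits *Il1a*, *Il1b*, *Tnf* and *Il1rn*, each with under 32 counts in any library.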
